A study of Mus musculus with 2 samples.

Results

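The genes described here are the Fgf genes of the mouse and a set of feedback and response genes of the same pathway, 33 genes in all. Of the Fgf genes 18 encode secreted ligands and 4 encode intracellular factors. They were taken by symbol from the GENCODE M21 annotation on mm10 and comprise 22 Fgf genes and 11 feedback and response genes, namely Spry1 to Spry4, Spred1 to Spred3, Dusp6, Etv4, Etv5 and Il17rd. All 33 were found among the 55536 gene entries of the tables. They were measured by polyA plus RNA-seq in limbs of B6NCrl mouse embryos at embryonic day 12.5, in 1 group of 2 libraries with no allele or treatment named. Replicate 1 came from a pool of 88 embryos and replicate 2 from a pool of 68, both sexes included, with 10 ng of RNA and ERCC spike-in RNA in each. No condition was varied, so the comparisons below are between genes, or between the 2 libraries.

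Fibroblast growth factors (FGFs) are secreted proteins that bind receptor tyrosine kinases together with heparan sulfate, and they signal largely through the Ras and ERK kinases. In the limb bud, FGFs of the apical ectodermal ridge, the epithelial rim at the tip, act on the mesenchyme beneath it, which answers with FGF10 and so maintains the ridge. ERK signalling switches on its own inhibitors, the Sprouty, Spred, Dusp6 and Il17rd proteins, as well as the ETS transcription factors Etv4 and Etv5, and the RNAs of many of these genes are used as readouts of the pathway.

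Levels are in TPM, a measure of transcript abundance that corrects for transcript length and sequencing depth. They are the authors' deposited values and are given per library or as mean ± SD over n = 2. Gene reads summed to 29633457 in replicate 1 and 30118921 in replicate 2, and 1 TPM of a 2000 nt transcript corresponds to 37.5 reads in the former and 37.9 in the latter. Spike-in entries held 7.34% of TPM in replicate 1 and 5.13% in replicate 2. The reads, estimated by the authors, were whole numbers in both libraries for 29 of the 33 genes within a tolerance of 0.005 reads, and not for Fgf2, Fgf20, Spry1 and Etv5. All 8 listed markers of limb mesenchyme and all 10 of the apical ridge and ectoderm reached 1 TPM in both libraries. So did 6 of 7 muscle, 5 of 5 cartilage, 5 of 5 endothelial, 4 of 5 Schwann cell, 4 of 4 macrophage and 6 of 8 neuron markers. In whole limb RNA, fewer cells of a type and less RNA per cell cannot be told apart.

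The feedback and response genes were all detected, while 13 of the 22 Fgf genes were under 1 TPM in at least 1 library. In each library all 11 feedback and response genes reached 1 TPM, at a median of 15.5 TPM. Of the 22 Fgf genes 9 did so in both, at a median of 0.77 TPM over the 22. Of the 18 among them that encode secreted ligands 7 did so, at a median of 0.48 TPM over the 18. Of all 55536 gene entries 15818 reached 1 TPM in replicate 1 and 15964 in replicate 2. The 15926 genes whose mean reached 1 TPM had a median of 15.3 TPM. As lower genes are left out of it, that median compares with the 11 feedback and response genes and not with the 22 Fgf genes. Summed over genes, the feedback and response genes held 268 TPM in replicate 1 and 279 TPM in replicate 2, and the Fgf genes 77.1 and 76.1 TPM. The genes ranged from the ERK phosphatase gene Dusp6, ranked 1879 among all genes, to Fgf3 and Fgf21, for which no read was counted in either library.

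**Figure D1:**
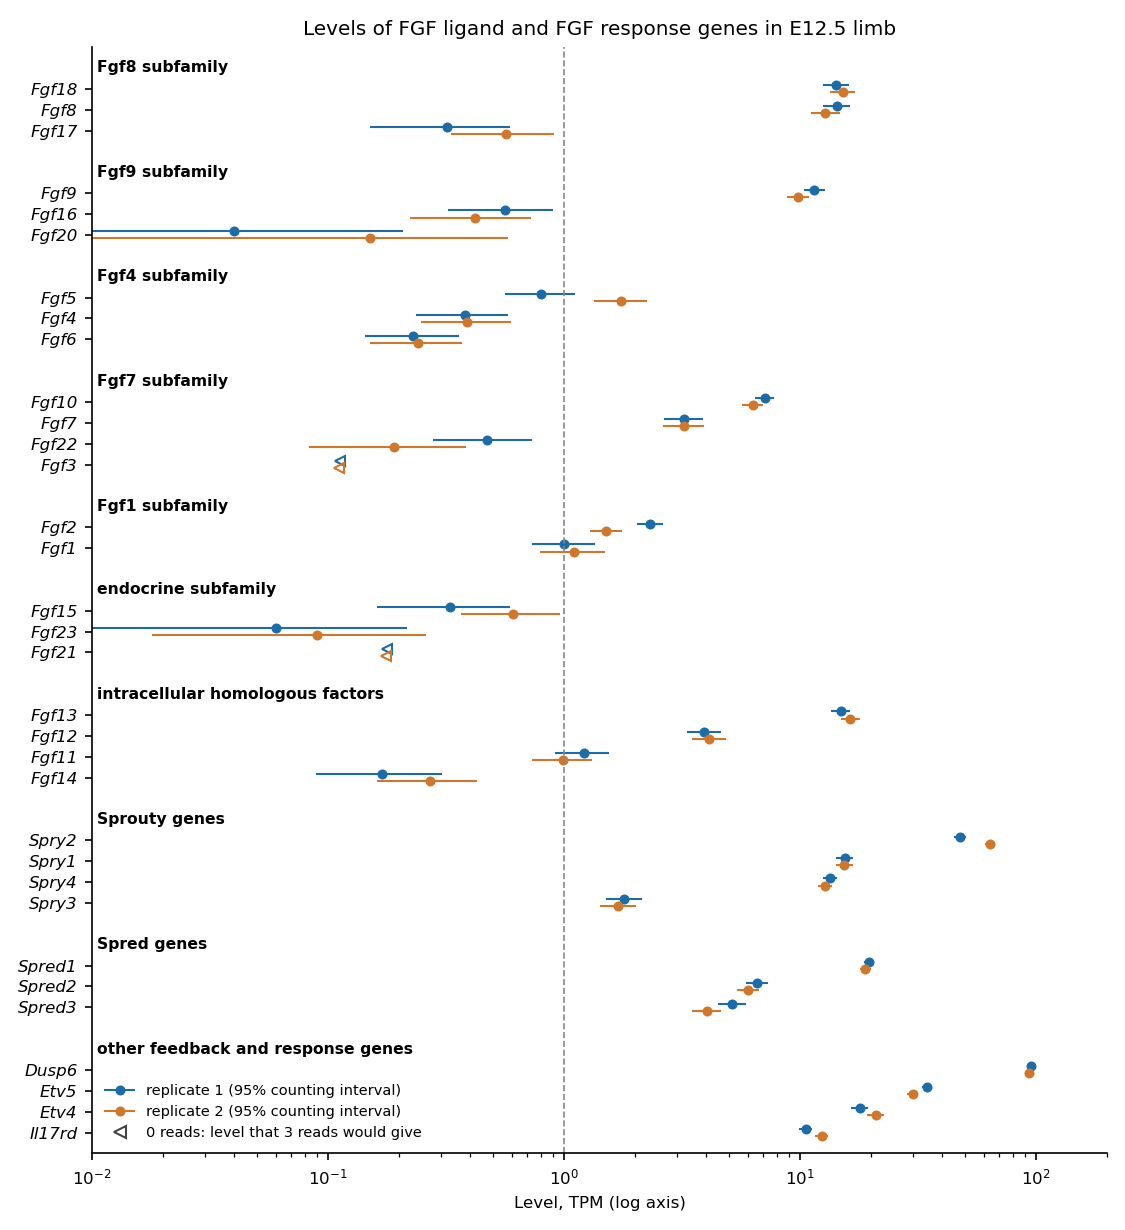
Level of each of the 33 genes in TPM on a log axis, by group, with 1 point per library (blue, replicate 1; orange, replicate 2) and bars for 95% Poisson counting intervals, which for Fgf20 and Fgf23 run past the left edge; open triangles mark genes with 0 reads at the level that 3 reads would give, and the dashed line marks 1 TPM. The 11 feedback and response genes all lie right of the line, from 1.7 TPM for Spry3 to 95.1 TPM for Dusp6, while 13 of the 22 Fgf genes fall below it in at least 1 library.

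Among the secreted ligands, the Fgf8 subfamily was the most abundant by TPM. Fgf8 (ENSMUSG00000025219.13, chromosome 19, 45736798 to 45742915), the principal signal of the ridge, stood at 14.3 TPM in replicate 1 and 12.8 TPM in replicate 2, from 254 and 226 reads. Fgf18 (chromosome 11, 33117430 to 33147400), which acts in skeletal growth, stood at 14.2 and 15.2 TPM from 277 and 295 reads. These levels of Fgf8 and Fgf18 overlap, and neither gene was higher in both libraries. Fgf17, a further gene of the ridge, stood at 0.32 and 0.57 TPM on 10 and 18 reads, with 95% counting intervals of 0.153 to 0.586 and 0.336 to 0.897 TPM, well below both. Fgf8 exceeded Fgf17 44.8-fold in replicate 1 and 22.5-fold in replicate 2, short of the spread between libraries described below, which is wide at this level.

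Fgf8 is spliced into several forms that differ near the start of the protein, and the shares of these forms differed between the libraries. All 6 annotated transcripts are coding. Fgf8-206 took 51.9% of Fgf8 TPM in replicate 1 and 22.5% in replicate 2, Fgf8-202 16.3% and 23.4%, and Fgf8-201 5.03% and 21.6%. The transcripts with a 33 nt coding segment, 11 residues long, on the minus strand of chromosome 19 at 45741647 to 45741679, are Fgf8-201 and Fgf8-206. Together they held 56.9% and 44.1%, or 50.5% ± 9.06, from an estimated 155 of 254 and 111 of 226 reads. A separate 87 nt segment at 45741911 to 45741997, in Fgf8-201 and Fgf8-204, was carried by 13.8% and 32.7% of Fgf8 TPM. Fgf8-201 carries both segments, Fgf8-206 the shorter alone and Fgf8-204 the longer alone. The coding sequences around the join are shown because this choice sets which form of the ligand is made. Capitals mark the optional segment, and the 15 bases on each side are shared.
Fgf8-206: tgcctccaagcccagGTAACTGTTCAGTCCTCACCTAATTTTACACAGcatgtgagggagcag
Fgf8-204: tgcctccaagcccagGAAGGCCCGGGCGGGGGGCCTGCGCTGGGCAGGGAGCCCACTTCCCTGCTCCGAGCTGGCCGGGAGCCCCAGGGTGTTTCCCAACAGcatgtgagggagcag
Fgf8-205: tgcctccaagcccagcatgtgagggagcag
In replicate 1 the deposited interval of Fgf8-206 was 4.35 to 8.53 TPM and in replicate 2 it was 1.26 to 4.54 TPM, so these intervals overlap. The transcripts of Fgf8 were chosen for description after their values were seen, and it was 1 of 7 genes whose most abundant transcript was not the same in both libraries.

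In the Fgf9 subfamily a single gene was well detected. Fgf9 (chromosome 14, 58070547 to 58112720), a signal of the ridge that also acts in skeletal and muscle development, stood at 11.5 and 9.85 TPM from 467 and 397 reads. Fgf8 was 1.24 and 1.30 times as high as Fgf9, less than the spread between libraries at that level. Fgf16, known from heart development, stood at 0.56 and 0.42 TPM on 17 and 13 reads. Fgf20, known from the inner ear and hair follicle, was listed at 0.04 and 0.15 TPM, from 1 and 1.44 estimated reads, too few for a fold, and it overlaps Micu3 on the other strand, at 9.99 and 11.1 TPM.

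Fgf9 was 1 of 3 genes with a mean of at least 5 TPM and a second transcript of at least 25% in both libraries. Fgf9-201, with 627 coding bases, held 72.0% and 73.6% of Fgf9 TPM. Fgf9-203 held 28.0% and 26.4%, and its annotated coding sequence of 276 bases lies wholly within that of Fgf9-201 and covers 44.0% of it. These shares moved by less than 2 percentage points between the libraries.

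The Fgf4 subfamily stayed near or below 1 TPM. Fgf4 (chromosome 7, 144847367 to 144865243), a signal of the posterior ridge, stood at 0.38 and 0.39 TPM on 22 and 23 reads, with 95% counting intervals of 0.238 to 0.576 and 0.249 to 0.591 TPM. Fgf8 exceeded it 37.7-fold and 32.9-fold, and Fgf9 exceeded it 30.3-fold and 25.3-fold, both short of the spread, which is wide at this level. Fgf6, known from muscle, stood at 0.23 and 0.24 TPM on 21 and 22 reads, and Fgf5, known as an inhibitor of hair growth, at 0.80 and 1.75 TPM on 38 and 67 reads. Fgf5 was therefore higher in replicate 2 and was the sole gene of the subfamily to pass 1 TPM in either library.

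Fgf3, Fgf4 and Fgf15 lie on the plus strand of chromosome 7 within 100 kb, with gaps of 2.93 kb between Fgf3 and Fgf4 and 31.3 kb between Fgf4 and Fgf15, and all were low. No read was counted for Fgf3, which limits it to 0.113 and 0.111 TPM, the level that 3 reads would give. Fgf15, of the endocrine subfamily, stood at 0.33 and 0.61 TPM on 11 and 19 reads. The cell cycle gene Ccnd1, on the minus strand further along, stood at 139 and 132 TPM. Nearer to Fgf15 on that side, Bc1 stood at 47.0 and 39.25 TPM and LTO1 at 21.8 and 20.8 TPM. On the other side of Fgf3, Ano1 stood at 1.34 and 1.42 TPM, so levels near 1 TPM were also found outside the 3 Fgf genes. Fgf6 and Fgf23 form a second such pair on chromosome 6, with 44.7 kb between them, and both were under 1 TPM.

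**Figure D2:**
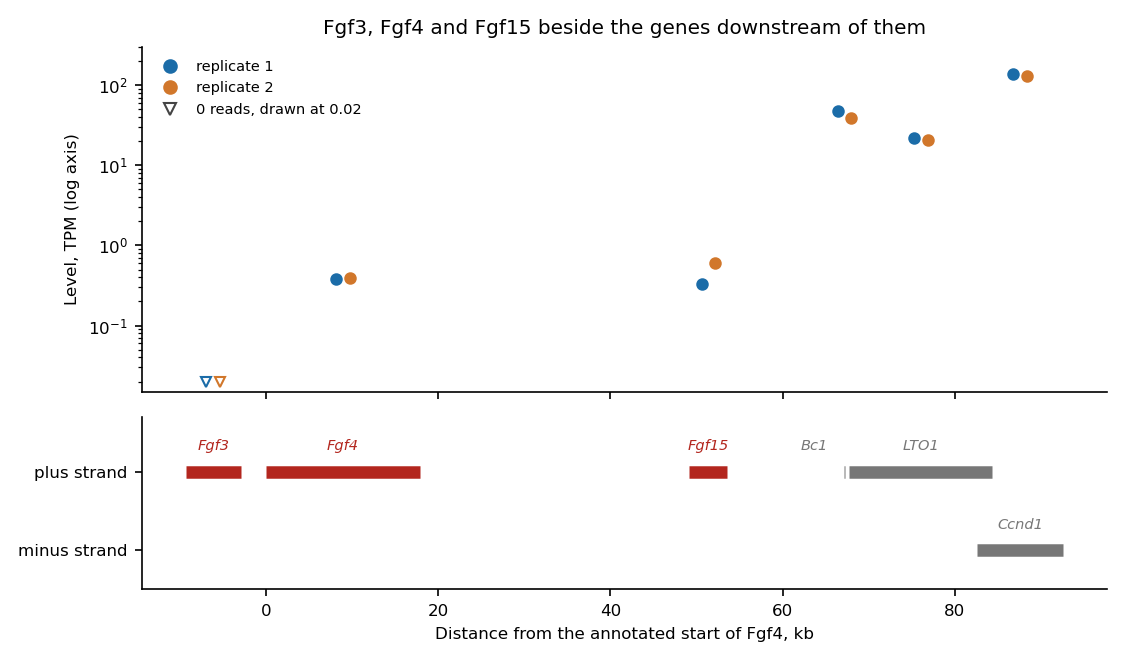
Levels in TPM (top, log axis, blue for replicate 1 and orange for replicate 2) and positions (bottom, by strand) of Fgf3, Fgf4, Fgf15 and the coding or lincRNA genes that follow them, against distance in kb from the annotated start of Fgf4; open triangles mark 0 reads. Fgf4 and Fgf15 lie between 0.33 and 0.61 TPM, and Ccnd1 at 139 and 132 TPM.

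In the Fgf7 subfamily Fgf10 led. Fgf10 (chromosome 13, 118669791 to 118792115), the mesenchymal ligand that initiates the limb bud, stood at 7.09 and 6.30 TPM from 562 and 504 reads. It was lower than Fgf8 in both libraries, at 0.495 and 0.491 times its level, which was past the spread, although its longer transcripts gave more reads. Fgf7, the keratinocyte growth factor, stood at 3.23 and 3.22 TPM from 126 and 114 reads, and Fgf10 exceeded it 2.20-fold and 1.96-fold, short of the spread. Fgf22, known from synapse formation, stood at 0.47 and 0.19 TPM on 19 and 8 reads. Fgf22 overlaps Rnf126 on the other strand, at 88.3 and 86.3 TPM, and the use of strand in counting was not given, so its few reads are uncertain.

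The levels of the Fgf1 subfamily differed between the deposited estimates, and the cause was not tested. Fgf2 (chromosome 3, 37348346 to 37410108), the basic FGF, stood at 2.32 and 1.51 TPM from 269 and 177 estimated reads, and Fgf1 (chromosome 18, 38838673 to 38929472), the acidic FGF, at 1.00 and 1.10 TPM from 47 and 44 reads. The deposited intervals, which follow the posterior mean, lay above these values in both libraries, for Fgf1 at 1.35 to 3.17 and 1.38 to 3.13 TPM and for Fgf2 at 2.52 to 4.55 and 1.82 to 3.89 TPM. Posterior means were 2.20 ± 0.0283 TPM for Fgf1 and 3.15 ± 0.502 TPM for Fgf2. With the GENCODE M4 tables of the same libraries Fgf1 stood at 0.475 ± 0.0495 TPM, so its place above or below 1 TPM depends on the table. Fgf2 exceeded Fgf1 2.32-fold and 1.37-fold, within the spread.

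The endocrine ligands, which act on distant organs through Klotho co-receptors, were low or not counted. Fgf15, known for its control of bile acid synthesis from the gut, is given above. Fgf23, the phosphate hormone, was listed at 0.06 and 0.09 TPM on 2 and 3 reads. No read was counted for Fgf21, a metabolic hormone of the liver, which limits it to 0.178 and 0.177 TPM. The co-receptor gene Kl was listed at 0.09 and 0.17 TPM and Klb at 0.01 and 0.07 TPM.

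Fgf11 to Fgf14 encode intracellular homologous factors, which are not secreted and are known for binding voltage-gated sodium channels. Fgf13 (ENSMUSG00000031137.17, chromosome X, 59062145 to 59568071), which also binds microtubules, was the most abundant of all 22 Fgf genes by its mean, at 14.9 and 16.3 TPM from 577 and 564 reads. Fgf12 stood at 3.93 and 4.13 TPM, Fgf11 at 1.21 and 0.99 TPM and Fgf14 at 0.17 and 0.27 TPM. Fgf13 exceeded Fgf12 3.79-fold and 3.95-fold, Fgf11 12.3-fold and 16.5-fold and Fgf14 87.7-fold and 60.5-fold, each past the spread. With the M4 tables Fgf12 stood at 1.47 ± 0.141 TPM, against 4.03 ± 0.141 TPM with M21.

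Fgf12 and Fgf13 each start from alternative first exons, which set the N-terminus. Fgf13-201, of 245 residues, held 60.3% and 52.2% of Fgf13 TPM, and Fgf13-202, of 192 residues, 9.93% and 17.6%. Fgf13-203, of 187 residues, held 10.3% in replicate 1 and was listed at 0 in replicate 2. Its deposited intervals were 0.0146 to 2.41 TPM in replicate 1 and 2.03e-06 to 1.47 TPM in replicate 2, which overlap. Those of Fgf13-202, 0.000919 to 3.38 and 0.741 to 4.07 TPM, overlap as well. Fgf12-205, of 181 residues, held 47.1% ± 4.15 of Fgf12 TPM and Fgf12-201, of 243 residues, 28.8% ± 3.91. Fgf12-204, of 115 residues, held 26.5% and 18.4%, against 26.0% and 31.6% for Fgf12-201, and 310 of its 348 coding bases are shared with Fgf12-201. Fgf12-205 rested on 25.04 and 30.1 estimated reads and Fgf12-201 on 81.2 and 105. The first coding segments are shown because they distinguish the forms printed within each gene, and capitals mark them, followed by 15 bases of the next coding exon. In Fgf13-203 that exon is annotated from 1 base earlier than in the other Fgf13 transcripts. These transcripts were chosen after their values were seen.
Fgf13-201: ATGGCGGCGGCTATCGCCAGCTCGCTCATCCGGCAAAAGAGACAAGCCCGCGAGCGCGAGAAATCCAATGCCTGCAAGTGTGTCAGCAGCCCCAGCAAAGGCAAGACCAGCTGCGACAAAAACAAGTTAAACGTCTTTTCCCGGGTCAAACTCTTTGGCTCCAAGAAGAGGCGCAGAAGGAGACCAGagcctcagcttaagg
Fgf13-202: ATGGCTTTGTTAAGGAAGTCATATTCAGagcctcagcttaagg
Fgf13-203: ATGCTTCTAAGGgagcctcagcttaag
Fgf12-201: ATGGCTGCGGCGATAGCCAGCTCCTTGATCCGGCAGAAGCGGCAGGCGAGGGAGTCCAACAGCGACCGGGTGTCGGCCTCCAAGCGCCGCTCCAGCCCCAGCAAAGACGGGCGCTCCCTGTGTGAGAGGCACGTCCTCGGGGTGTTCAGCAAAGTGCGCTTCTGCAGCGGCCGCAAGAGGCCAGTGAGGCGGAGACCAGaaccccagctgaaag
Fgf12-205: ATGGAGAGCAAAGaaccccagctgaaag

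The transcript shares of these genes are drawn beside those of Fgf8, Fgf9, Spry1 and Spred2.

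**Figure D3:**
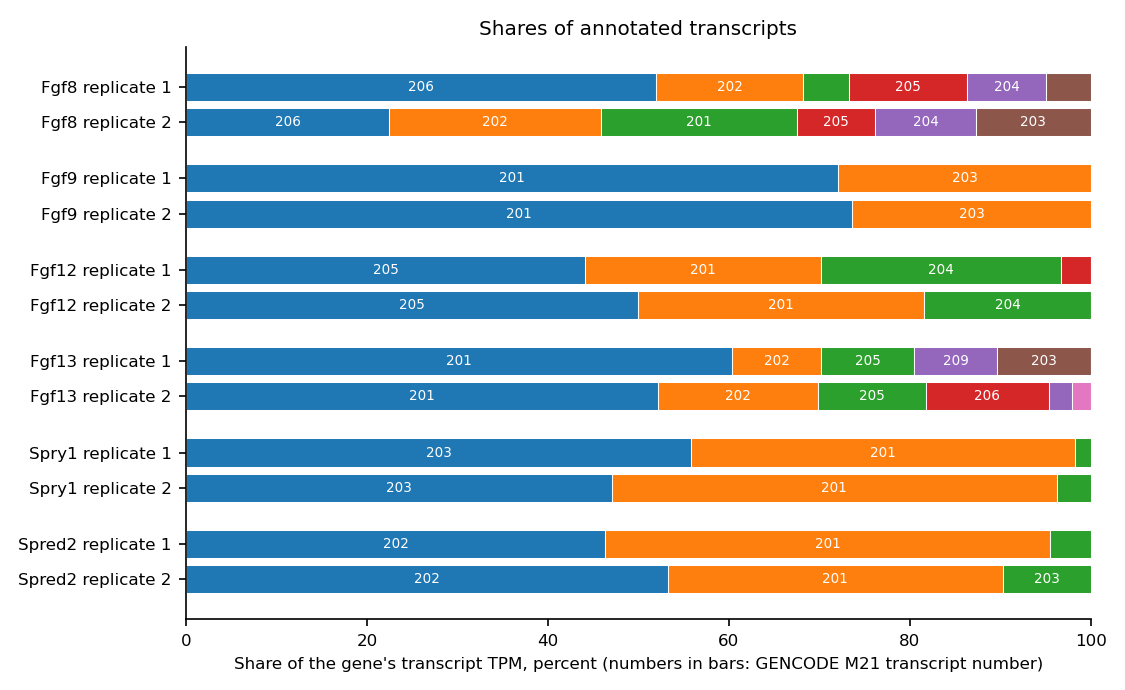
Share of each gene's transcript TPM, in percent, held by each annotated transcript of Fgf8, Fgf9, Fgf12, Fgf13, Spry1 and Spred2, with 1 bar per library and transcript numbers inside segments of at least 7.5%. Transcript 206 of Fgf8 falls from 51.9% to 22.5% between the bars, while transcript 201 of Fgf9 stays at 72.0% and 73.6%.

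Taken as shares of the summed TPM of the 22 Fgf genes, the subfamilies kept their order in both libraries. The Fgf8 subfamily held 37.4% in replicate 1 and 37.5% in replicate 2, and the intracellular factors 26.2% and 28.5%. The Fgf9 subfamily followed with 15.7% and 13.7% and the Fgf7 subfamily with 14.0% and 12.8%. The Fgf1 subfamily held 4.31% and 3.43%, the Fgf4 subfamily 1.83% and 3.13% and the endocrine subfamily 0.506% and 0.920%. The genes Fgf13, Fgf18, Fgf8, Fgf9 and Fgf10 together made up 80.5% and 79.5%. This order holds for TPM and not for reads, which longer transcripts give more of. By reads the intracellular factors came first with 27.5% and 29.5%, the Fgf7 subfamily followed with 23.9% and 22.9%, and the Fgf8 subfamily held 18.3% and 19.7%.

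**Figure D4:**
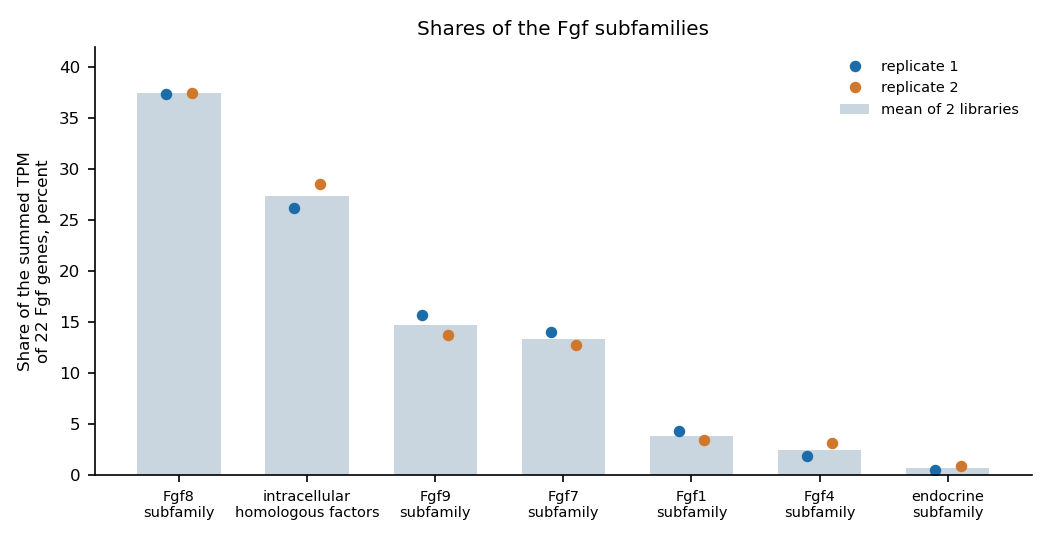
Share of the summed TPM of the 22 Fgf genes, in percent, by subfamily, with bars for the mean of 2 libraries and points for each library (blue, replicate 1; orange, replicate 2). The Fgf8 subfamily stands highest at 37.4% and 37.5%, ahead of the intracellular factors at 26.2% and 28.5%.

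The Sprouty genes encode feedback inhibitors of receptor tyrosine kinase signalling, and Spry2 led them. Spry2 (ENSMUSG00000022114.5, chromosome 14, 105891947 to 105896819) stood at 47.7 TPM in replicate 1 and 64.0 TPM in replicate 2, from 1871 and 2538 reads. Spry1 (chromosome 3, 37639947 to 37644598) stood at 15.5 and 15.4 TPM from 726 and 731 estimated reads, and Spry4 at 13.4 and 12.7 TPM from 1233 and 1183 reads. Spry3, annotated on the scaffold GL456233.1, was lowest at 1.80 and 1.7 TPM. Spry2 exceeded Spry4 3.55-fold and 5.03-fold, Spry4 exceeded Spry3 7.46-fold and 7.49-fold, and Spry1 stood at 0.325 and 0.241 times Spry2, all past the spread. Spry1 was the second gene to meet the transcript rule, with 55.8% and 47.0% for Spry1-203 and 42.4% and 49.2% for Spry1-201. Their 942 coding bases are the same, so these shares concern the ends outside the coding sequence.

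The Spred genes encode membrane-associated inhibitors of Ras and Raf. Spred1 (chromosome 2, 117121374 to 117182279) stood at 19.6 and 18.9 TPM, Spred2 at 6.58 and 6.05 TPM and Spred3 at 5.15 and 4.02 TPM. Spred1 exceeded Spred2 2.98-fold and 3.13-fold, past the spread, whereas Spred2 exceeded Spred3 1.28-fold and 1.505-fold, short of it. Spred3 has no transcript annotated other than Spred3-201 that makes protein, which held 45.2% and 65.8%. The retained-intron entry Spred3-203 held 41.7% and 25.1%, on 27.9 and 13.2 estimated reads. Counted from its protein-coding transcript alone, Spred3 stood at 2.49 ± 0.226 TPM in place of 4.58 ± 0.799 TPM.

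Spred2 was the third gene of the transcript rule. Spred2-202 held 46.4% and 53.2% and Spred2-201 49.1% and 37.0%. They differ in coding sequence by a segment of 81 nt, or 27 residues, on chromosome 11 at 20001009 to 20001089. Transcripts with it made up 50.9% and 63.0% of Spred2 TPM. The sequence is shown in capitals because this segment is the coding difference between the main forms.
Spred2-202: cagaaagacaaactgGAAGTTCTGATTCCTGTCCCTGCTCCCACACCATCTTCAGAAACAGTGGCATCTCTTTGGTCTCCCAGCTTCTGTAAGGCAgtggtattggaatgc
Spred2-201: cagaaagacaaactggtggtattggaatgc

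The remaining response genes included the most abundant member. Dusp6 (ENSMUSG00000019960.8, chromosome 10, 99263231 to 99267489), which encodes the cytoplasmic phosphatase of ERK, stood at 95.1 and 93.2 TPM from 4893 and 4908 reads. Etv5 (chromosome 16, 22381309 to 22439719) stood at 34.6 and 30.0 TPM and Etv4 (chromosome 11, 101769742 to 101785371) at 17.9 and 20.9 TPM, both ETS factors that FGF induces in limb mesenchyme. Il17rd, the transmembrane FGF antagonist also known as Sef, stood at 10.6 and 12.4 TPM. Dusp6 exceeded Etv5 2.75-fold and 3.11-fold, Spry4 7.09-fold and 7.32-fold and Il17rd 9.01-fold and 7.54-fold. Etv4 stood at 0.518 and 0.696 times Etv5. All 4 of these comparisons were past the spread.

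Pairs were read against a spread, computed on the log2(TPM + 0.01) scale as the 95th percentile of the size of the change from replicate 1 to replicate 2 in 500 genes, those whose level lay closest to that of the pair's less abundant gene. Of 27 pairs compared, 14 were past it in both libraries in the same direction. Of these 14, Fgf4 over Fgf3 rests on the limit of 3 reads for Fgf3 and Fgf9 over Fgf20 on 1 and 1.44 reads. Fgf4 over Fgf3 and Fgf13 over Fgf11 did not pass with 1000 nearest genes, and the former did not with the M4 tables either. The spread was 0.25 for genes near Spry2 but 6.23 for genes near Fgf4, so Fgf8 against Fgf4 and Fgf8 against Fgf17 did not pass. With the spread taken over genes with a read in each library, chosen after seeing the data, it was 1.98 near Fgf4 and 1.91 near Fgf17, and 22 pairs passed, these among them. Ordered by mean level, Dusp6 exceeded Spry2, Spry2 exceeded Etv5 and Etv5 exceeded Etv4, each past the spread. None of the 27 steps that follow in that order was past it, so the order from Etv4 and Spred1 at 19.4 and 19.3 TPM down to Fgf20 and Fgf23 is not resolved step by step.

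Few of the genes differed between the libraries. With a 2-fold or larger TPM ratio required beside an adjusted p under 0.05, 1 of 22 tested genes differed, against 1.07% of all 15926 genes tested. It was Fgf5, whose TPM was 2.19-fold higher in replicate 2, with an adjusted p of 0.0357 by the exact binomial test on reads. The ratio of its reads over library size was 1.74-fold, since 25.1% of its TPM in replicate 2 was assigned to Fgf5-202, an entry of 600 nt with 4.4 estimated reads that was listed at 0 in replicate 1. Fgf5 was not called with the M4 tables, with an adjusted p of 0.0517, or with no filter on level, with an adjusted p of 0.0594. Over the settings that tested it, the adjusted p lay between 0.0343 and 0.0594.

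Without a minimum fold 4 of 22 differed, against 19.2% of all genes tested, a share close to that background. Spry2 was higher in replicate 2 by 0.42 on the log2(TPM + 1) scale, with an adjusted p of 1.24e-19. Fgf2 was lower there by a log2 difference of -0.40, with an adjusted p of 0.000116, and Etv5 by -0.20, with an adjusted p of 0.00207. Among tested genes of 50 to 100 TPM the 5th and 95th percentiles of this difference were -0.16 and 0.20, and Spry2 lay outside them. Fgf2, Fgf5 and Etv5 lay within the percentiles of their own levels. These are p-values of an exact binomial test on 1 library a side, adjusted by Benjamini-Hochberg, and they cover counting error and not the variation between animals.

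**Figure D5:**
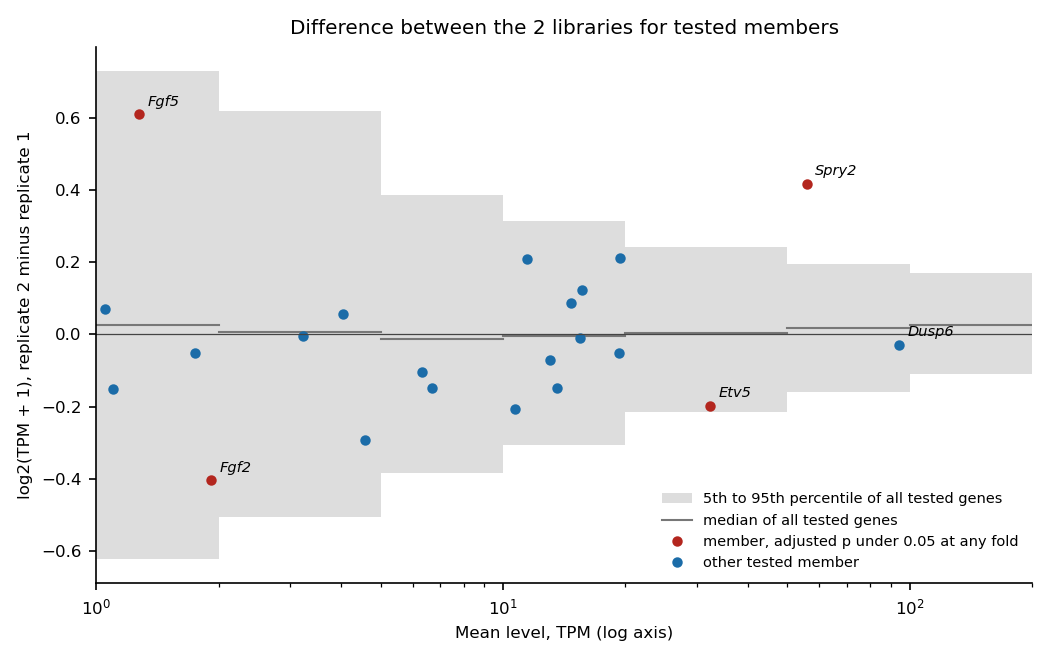
Difference between replicate 2 and replicate 1 on the log2(TPM + 1) scale against mean level in TPM (log axis) for the 22 tested genes; grey blocks span the 5th to 95th percentile of all tested genes by level and grey lines their median, and red points have an adjusted p under 0.05 at any fold. Spry2 lies above its block at 0.42, while Fgf5, Fgf2 and Etv5 lie inside theirs.

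Markers of other cell types also moved between the libraries. The summed level of the 8 neuron markers was 32.3 TPM in replicate 1 and 47.2 TPM in replicate 2, and 6 of the 8 were higher in replicate 2. By their means Isl1, at 6.94 and 13.3 TPM, and the neuronal tubulin Tubb3, at 7.13 and 11.5 TPM, led, and Elavl3 was lowest at 0.01 and 0.18 TPM. None of 6 tested was called at 2-fold by the exact binomial test, against 1.07% of all genes tested. Without a minimum fold 5 of the 6 were called, against 19.2% of all genes tested called in either direction. Of these, 4 were higher in replicate 2 and 1 was lower, the microtubule protein gene Dcx, at 8.14 and 7.11 TPM. Snap25 was also lower there, at 0.37 and 0.25 TPM, and was not tested. The summed level of the 5 cartilage markers was 820 and 706 TPM, and 2 of them were called lower in replicate 2 at 2-fold, against 1.07% of all genes tested, the matrix genes Matn1 at 24.0 and 9.65 TPM and Acan at 8.07 and 3.90 TPM. Without a minimum fold 4 of the 5 were called lower, Col2a1 and Col9a1 in addition, against 19.2% of all genes tested called in either direction. The ridge and ectoderm markers summed to 335 and 316 TPM and those of limb mesenchyme to 882 and 916 TPM. No gene of either list was called at 2-fold. Without a minimum fold 4 of 10 ridge and ectoderm markers were called, 1 higher and 3 lower in replicate 2. So were 4 of 8 of limb mesenchyme, 3 higher and 1 lower, each list against 19.2% of all genes tested. The 1 lower was the forelimb factor Tbx5, at 40.0 and 28.4 TPM. The hindlimb factor Tbx4, at 30.6 and 35.1 TPM, was among the 3 higher. The part of these in the differences of Fgf5, Spry2, Fgf2 and Etv5 was not tested.

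The receptors and relay of the pathway were measured at higher levels than most ligands. Of 10 genes for receptors and co-receptors 8 reached 1 TPM in both libraries. Their median was 27.3 TPM, and they were led by the receptor genes Fgfr1 at 117 and 109 TPM and Fgfr2 at 96.1 and 89.4 TPM, with Klb lowest. All 20 genes of the signal relay did so, with a median of 62.6 TPM, led by the MAP kinase kinase gene Map2k2 at 172 and 183 TPM, with the exchange factor Sos1 lowest at 4.75 and 5.20 TPM. By the exact binomial test no gene of either list was called at 2-fold between the libraries, while 7 of 8 tested in the receptor list, each lower in replicate 2, and 6 of 20 in the relay list were called without a minimum fold, against 19.2% of all genes tested.

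Of 14 other growth factor response genes 13 reached 1 TPM, with a median of 14.0 TPM, none called at 2-fold by the exact binomial test and 6 of 13 tested without a minimum fold, against the same 19.2%, led by Ccnd1 and by the immediate early gene Ier2 at 105 and 115 TPM, with Fosl1 lowest at 0.16 and 0.13 TPM. All 15 genes of heparan sulfate and ligand handling reached 1 TPM, with a median of 27.9 TPM. The glypican gene Gpc3, a cell surface heparan sulfate proteoglycan, stood at 934 and 935 TPM and the sulfatase Sulf2 at 146 and 141 TPM, and the FGF binding protein Fgfbp1 was lowest at 3.48 and 2.55 TPM. Of these 15 the sulfotransferase Hs6st1 was the one called at 2-fold, against 1.07% of all genes tested, at 3.8 TPM in replicate 1 and 9.57 TPM in replicate 2. Without a minimum fold 5 of the 15 were called, the heparan sulfate synthesis genes Ext1, Ext2, Extl3 and Ndst1 in addition, against 19.2%.

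The promoters of the genes were searched for a binding motif of ETS factors, the family of Etv4 and Etv5. RefSeq promoter windows on GRCm38.p6, from 250 bases before to 50 after a gene's start, matched 24 of the 33 genes, with 31 windows. Not matched, and so not searched, were Fgf1, Fgf8, Fgf15, Fgf16, Fgf17, Fgf20, Spry3, Spry4 and Etv4. The motif CCGGAAG, on either strand, was in 0 of the 31 windows of these 24 genes, and in 8.86% of all 32851 windows. The longer ACCGGAAG, which contains it, was in 0 of the 31 and in 2.30% of all windows. This says only that these letters are not in the windows searched.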

How the data were processed

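PolyA plus RNA-seq of 2 libraries was quantified by the authors per gene and transcript for GENCODE M21 and M4 on mm10, per the labels. The authors deposited expected counts, which need not be whole, values normalized to TPM and FPKM, posterior means with intervals, and each transcript's percent of its gene. Which aligner and program version made them, and whether strand was used, is not stated in those sources.

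Reads behind a level are rounded expected counts with exact 95% Poisson intervals, which cover counting error only, and 0 reads were limited by 3. Libraries were compared by an exact two-sided binomial test with TMM sizes from edgeR 4.0.16, Benjamini-Hochberg adjusted over genes at a mean of 1 TPM. The test was tried on counts simulated with Poisson counting error alone, which cannot assess variation between pools. DESeq2 1.42.0 served an alternative, as did M4, FPKM, other minima and pseudocounts. The labels name the pools biological replicates and nothing further, so p-values measure these 2 libraries.

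The members and lists were chosen with earlier results of these data known. All 33 genes are named, and 27 pairs were compared. The cartilage list is represented by counts, sums and called genes, and the lists of ridge and ectoderm and of limb mesenchyme by counts and sums. The lists of muscle, endothelium, Schwann cell and macrophage are represented by their counts at 1 TPM alone. Context lists and the neuron list are represented by their 2 most abundant genes, their lowest and those called. The value of 1 gene that this rule names is not reported here. Tbx4, Tbx5, Snap25, Ano1, Bc1, LTO1 and the transcripts of Fgf8, Fgf12, Fgf13 and Spred3 were named after their values were seen. Coding sequences come from GENCODE M21.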

Additional observations from a re-analysis of the deposited data

How the results depend on the processing

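The counts at 1 TPM stayed within 1.5 times under every alternative run: between 17 and 22 of 33 genes, 7 and 11 of 22 Fgf genes, and 10 and 11 of 11 feedback and response genes, with 10 of 10 in the M4 tables, which hold no matching entry for Spry3. The number of pairs past the spread was 25 with expected counts not divided by length, 22 with posterior mean TPM and 22 with the spread over genes with a read in each library, which was added after seeing the data, against 14, and with single libraries 14 to 15. The larger numbers came from pairs that joined. Without length, 2 pairs reversed, to mean log2 ratios of -0.84 for Fgf8 over Fgf9 and 1.15 for Fgf10 over Fgf8. Genes called as differing numbered 4 of 22 with no minimum fold, against 19.2% of all genes tested, and 2 at 1.5-fold. They numbered 0 with no filter, at a mean of 5 TPM (which leaves Fgf5 out) and with M4 tables. They also numbered 0 with the fold of reads over library size, added after seeing the data. The share of all genes called is not given for 1.5-fold or for the settings with 0, so those counts have no background here. The Fgf8 subfamily held 39.5% with M4, 34.9% with posterior means and 19.0% without length, and 37.4% to 37.5% in single libraries. Fgf9-201 held 69.7% by posterior means, and in single libraries 72.0% to 73.6%; the ranges were 46.4% to 53.2% for Spred2-202 and 47.0% to 55.8% for Spry1-203. The level moved by over 1.5 times for Fgf1, Fgf6 and Fgf12 with M4 and for Spred3 by coding transcripts alone. Motif counts remained 0 in the last 100 bases. No paired analysis was possible because there is 1 group. Genes under about 20 reads, such as Fgf17, Fgf16, Fgf22 and Fgf15, carry wide counting intervals, and a difference between the libraries has no replicate check. The cause was not tested for any change except where the setting itself removes genes.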
